A study of Mus musculus with 8 samples.

Results

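Transcripts of 10 adhesion genes were followed in primary microglia, the resident macrophages of the brain, from C57BL/6 mice. They were the endothelial and leukocyte counter-receptors Icam1 and Vcam1, the integrin subunits Itgal, Itgb2, Itga4, Itga5, Itgav and Itgb1, the hyaluronan receptor Cd44 and the scaffold Cass4. Their probes were found by mapping the RefSeq accession of each probe to a gene symbol, and all 10 genes were among the 19113 genes tested, 12590 of which had a symbol. The array held 19 probes for them, of which 17 passed a filter on dim signals, and every member kept at least 1 probe. For 8 of the 10 the chosen probe was well above background on all 8 arrays, as it was for 88.9% of genes, the exceptions being Vcam1 and Cass4.

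RNA was measured on 8 one-colour Agilent arrays after 3 h of exposure, with 2 arrays in each of 4 groups. Cells received 20 µg/ml of an Fc fusion of residues 71 to 132 of Ecrg4, written Ecrg4(71-132), or 20 µg/ml of an Fc fusion of residues 133 to 148, written Ecrg4(133-148). Ecrg4 is a precursor protein from which secreted peptides are released. The controls received 20 µg/ml of recombinant Fc, the antibody constant fragment that both fusions carry, or PBS alone. The labels number the duplicates of each treatment as set 1 and set 2 but are silent on whether a set is a culture or an animal of its own, and p-values here measure only the spread between these samples. Levels are log2 signals with the 75th percentile of each array at 0, and a fold on the log2 scale of 1 is a doubling.

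Adhesion of leukocytes rests on pairs of surface proteins. An integrin is a heterodimer of an alpha and a beta subunit: Itgal with Itgb2 forms LFA-1, which binds ICAM-1, Itga4 with Itgb1 forms VLA-4, which binds VCAM-1 and fibronectin, and Itga5 with Itgb1 forms the classical fibronectin receptor. Icam1 and Vcam1 are known as genes whose transcription inflammatory stimuli raise through NF-kB, while integrins are largely controlled at the protein level, by activation from inside the cell. CD44 binds hyaluronan in the extracellular matrix and is raised on activated macrophages and glia. Cass4 belongs to the Cas family of adaptor proteins, which relay signals at focal adhesions.

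The arrays had 24252 to 29466 probes well above background, the flag that the scanner software sets per spot, and a 75th percentile of signal of 494.6 to 809.3. All 8 listed microglial markers were well above background on some array, and their summed signal, in multiples of the 75th percentile, was 484 to 576 in set 2 and 559 to 598 in set 1. The sets differed widely: 59.3% of all genes passed the test of set 2 against set 1, with 6963 higher and 4364 lower (limma, Benjamini-Hochberg adjusted p under 0.05). Of the 8 microglial markers 2 were higher and 5 lower in set 2. The 6 fibroblast and mural cell markers summed to 0.407 to 1.01 in set 2 and 22.2 to 47.8 in set 1, and the oligodendrocyte lineage markers to 89.5 to 108 in set 2 and 34.9 to 37.5 in set 1. Each treatment was compared within each set, 1 array against 1, as well as over both sets. In such bulk RNA, fewer cells of a type and less RNA per cell cannot be told apart.

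Icam1, the gene of the LFA-1 ligand, was highest with Ecrg4(71-132) in both sets. In set 2 its level was 2.92 with Ecrg4(71-132), 2.07 with Ecrg4(133-148), 0.88 with Fc and 0.08 with PBS. Set 1 gave 2.46 with Ecrg4(71-132), 2.04 with Ecrg4(133-148), 1.98 with Fc and 1.59 with PBS. The order was the same in both sets, and the control arrays of set 2 were lower than those of set 1 while the fragment arrays were not. Against Fc, Ecrg4(71-132) gave 4.11-fold more signal in set 2 and 1.39-fold more in set 1. Ecrg4(133-148) gave 2.27-fold more in set 2 and 1.04-fold more in set 1, so that in set 1 its Icam1 level lay almost on that of Fc. Over both sets the log2 difference of Ecrg4(71-132) from Fc was 1.26 (SE 0.60), which did not pass the test (limma, adjusted p = 1).

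Vcam1, the gene of the VLA-4 ligand, had the widest spread of the 10 genes in set 2, and in set 1 it was second to Cass4. In set 2 its level was -0.79 with Ecrg4(71-132) and -2.19 with Ecrg4(133-148), against -4.59 with Fc and -4.90 with PBS, and neither control signal was well above background. In set 1 all 4 arrays were well above background, at 1.25 with Ecrg4(71-132), 0.33 with Ecrg4(133-148), 0.49 with Fc and 1.19 with PBS. The fragment arrays thus stood above both controls in set 2, while in set 1 the PBS array was level with Ecrg4(71-132) and above Ecrg4(133-148). Since the dim arrays give only a bound, set 2 held at least 7.62-fold more Vcam1 signal with Ecrg4(71-132) than with Fc, and at least 10.1-fold more than with PBS. The bounds for Ecrg4(133-148) in set 2 were at least 2.89-fold above Fc and at least 3.85-fold above PBS. In set 1 the log2 difference of Ecrg4(71-132) from Fc was 0.76. A second, dimmer Vcam1 probe was well above background in set 1 alone, where it read -3.27 with Ecrg4(71-132), -4.25 with Ecrg4(133-148), -4.31 with Fc and -3.82 with PBS. Both probes were highest with Ecrg4(71-132) and then PBS in set 1, and they ordered Ecrg4(133-148) and Fc differently.

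**Figure D1:**
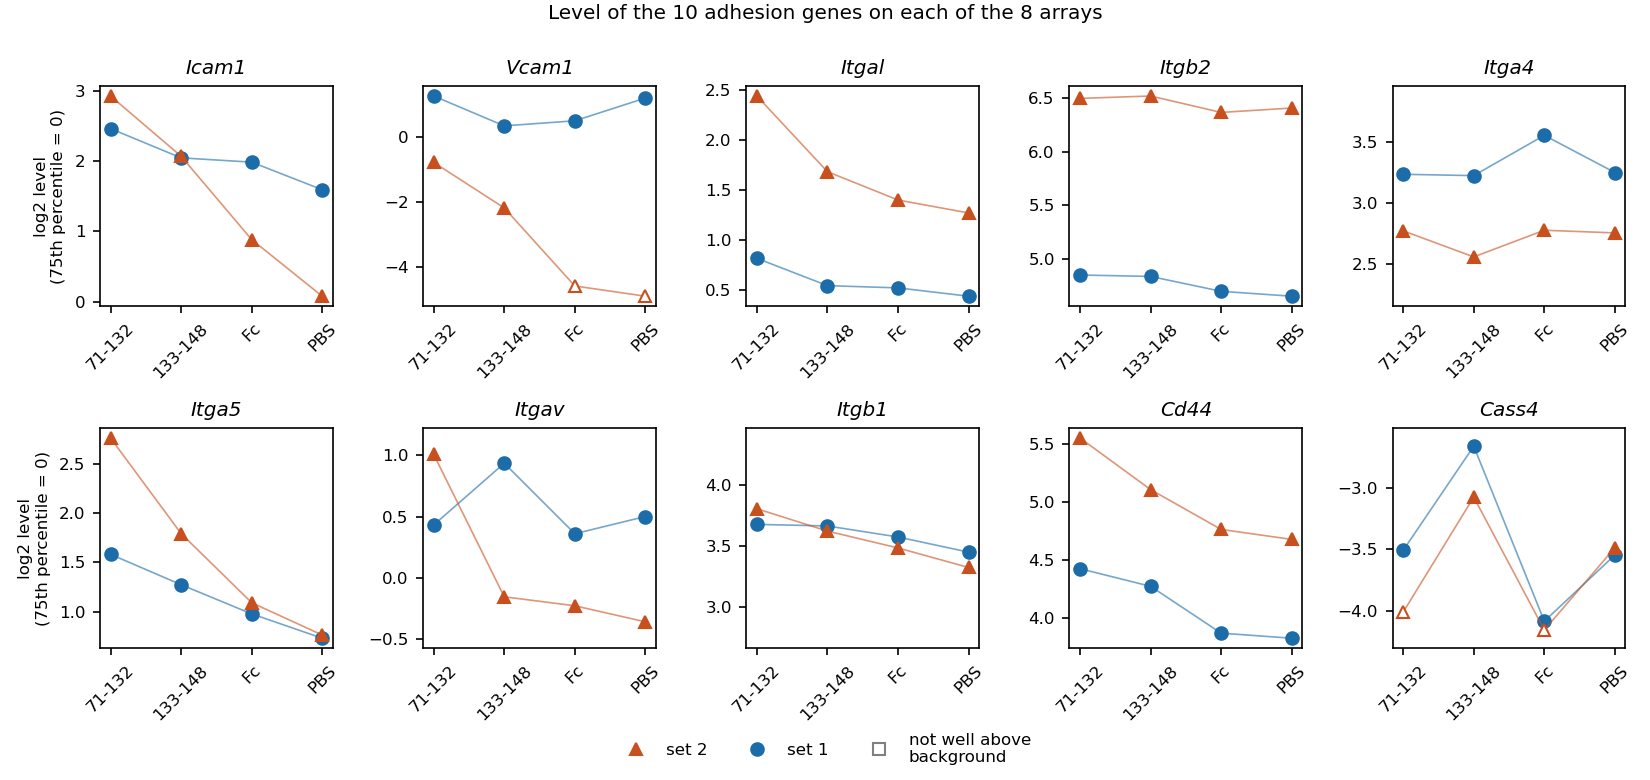
Log2 level (75th percentile of each array at 0) of the 10 genes on each array, with the treatments on the x axis, set 2 as triangles and set 1 as circles; open symbols are not well above background, each panel has its own y axis, and lines join the arrays of 1 set as a guide to the eye. Icam1, Itga5 and Cd44 descend from Ecrg4(71-132) to PBS in both sets, Vcam1 does so in set 2 alone, and Itgb2 is nearly flat within each set.

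Of the integrin subunits, Itga5 varied most across the treatments. Its level in set 2 was 2.76 with Ecrg4(71-132), 1.79 with Ecrg4(133-148), 1.09 with Fc and 0.76 with PBS. In set 1 it was 1.58 with Ecrg4(71-132), 1.27 with Ecrg4(133-148), 0.98 with Fc and 0.73 with PBS. The PBS arrays of both sets were nearly level, and each treatment kept the same place in the order. Itgal, the alpha subunit of LFA-1, had the same order at a lower amplitude: 2.44 with Ecrg4(71-132), 1.68 with Ecrg4(133-148), 1.40 with Fc and 1.27 with PBS in set 2, and 0.82, 0.54, 0.52 and 0.44 in the same order in set 1. In set 1 the Ecrg4(133-148), Fc and PBS arrays of Itgal lay close together. The second Itgal probe gave the same order of treatments in both sets.

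Itgav, the alpha subunit of the vitronectin receptors, did not repeat between the sets. In set 2 it was 1.01 with Ecrg4(71-132), -0.16 with Ecrg4(133-148), -0.23 with Fc and -0.36 with PBS. Set 1 gave 0.43 with Ecrg4(71-132), 0.94 with Ecrg4(133-148), 0.36 with Fc and 0.50 with PBS. The highest array was thus Ecrg4(71-132) in set 2 and Ecrg4(133-148) in set 1. On the second Itgav probe, Ecrg4(71-132) was highest in both sets, at 0.54 against -0.52 with Ecrg4(133-148) in set 2 and at -0.24 against -0.31 in set 1, so the probes disagreed on set 1.

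The beta subunits and Itga4 varied little across the treatments. Itgb2, the beta subunit shared by the leukocyte integrins, was 6.49 with Ecrg4(71-132), 6.51 with Ecrg4(133-148), 6.36 with Fc and 6.40 with PBS in set 2, and 4.86, 4.84, 4.70 and 4.66 in the same order in set 1. Its treatments spanned 0.15 in set 2 and 0.20 in set 1, while the sets stood far apart. Itgb1, the partner of Itga4 and Itga5, was 3.80 with Ecrg4(71-132), 3.62 with Ecrg4(133-148), 3.48 with Fc and 3.32 with PBS in set 2. In set 1 it was 3.68 with Ecrg4(71-132), 3.66 with Ecrg4(133-148), 3.57 with Fc and 3.45 with PBS, a small decline in the same order. Itga4 was 2.77 with Ecrg4(71-132), 2.56 with Ecrg4(133-148), 2.78 with Fc and 2.76 with PBS in set 2, and 3.24, 3.23, 3.55 and 3.25 in the same order in set 1. On this probe Fc was the highest and Ecrg4(133-148) the lowest array in both sets. The second Itga4 probe matched this only in part: Fc was highest in set 1, at -2.07, and Ecrg4(133-148) lowest in set 2, at -3.51. It differed in that Ecrg4(71-132) was highest in set 2, at -2.85 against -3.18 with Fc, and PBS was lowest in set 1, at -2.74.

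Cd44 followed the order of Icam1. In set 2 its level was 5.55 with Ecrg4(71-132), 5.11 with Ecrg4(133-148), 4.76 with Fc and 4.68 with PBS. In set 1 it was 4.43 with Ecrg4(71-132), 4.27 with Ecrg4(133-148), 3.87 with Fc and 3.83 with PBS. The controls were nearly level within each set, with both fragments above them. Of its 4 probes, the other bright one kept this order in both sets, whereas a dim one had Fc highest in set 1, at -2.28 against -2.68 with Ecrg4(71-132), and the other dim one had Ecrg4(133-148) highest in set 1. All 4 Cd44 probes were highest with Ecrg4(71-132) in set 2.

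Cass4 did not follow that order, and its signals were close to the detection limit. In set 2 it was -4.01 with Ecrg4(71-132), -3.07 with Ecrg4(133-148), -4.16 with Fc and -3.49 with PBS, and the Ecrg4(71-132) and Fc arrays were not well above background. In set 1 it was -3.51 with Ecrg4(71-132), -2.66 with Ecrg4(133-148), -4.09 with Fc and -3.55 with PBS. Ecrg4(133-148) was the highest and Fc the lowest array in both sets. The lowest signal well above background ran from -5.14 to -3.72 over the arrays, and the second Cass4 probe was not well above background on any of them.

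The treatments can be summarised by the range from the lowest to the highest of the 4 arrays of a set. Icam1 spanned 2.84 in set 2 and 0.87 in set 1, and Vcam1 spanned 4.11 in set 2, with its low end not well above background, and 0.92 in set 1. The 6 integrins spanned 0.15 to 1.996 in set 2 and 0.20 to 0.85 in set 1, with Itga5 the widest in both sets, and Itgb2 and Itga4 were the narrowest in set 2. The median of all genes was 0.31 in set 2 and 0.23 in set 1. In set 2, 6 of the 10 members spanned over 2-fold on the signals as read (Icam1, Vcam1, Itgal, Itga5, Itgav and Cass4), where 12.3% of all genes did. The low end of Cass4 there was not well above background. Its Ecrg4(133-148) array was at least 1.56-fold above Fc and at least 1.92-fold above Ecrg4(71-132), which leaves the 2-fold span unmeasured. In set 1 only Cass4 spanned over 2-fold, where 4.74% of all genes did. The counter-receptors were not separated from the integrins as a class in set 1, where Itga5 spanned nearly as much as Icam1. In set 2 Icam1 and Vcam1 each spanned more than any integrin.

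Upstream sequence is shown for Icam1 and Itga5, which shared an order of treatments, and for Itga4, which did not follow it. The 250 bases before the annotated start come from RefSeq on GRCm38.p6 and are read on the strand of the gene, at chr9:21015690-21015939 on the plus strand for Icam1, chr15:103366792-103367041 on the minus strand for Itga5 and chr2:79255176-79255425 on the plus strand for Itga4. Capitals mark matches, on either strand, to GGANNTTCC and to the GC box GGGCGG.
Icam1: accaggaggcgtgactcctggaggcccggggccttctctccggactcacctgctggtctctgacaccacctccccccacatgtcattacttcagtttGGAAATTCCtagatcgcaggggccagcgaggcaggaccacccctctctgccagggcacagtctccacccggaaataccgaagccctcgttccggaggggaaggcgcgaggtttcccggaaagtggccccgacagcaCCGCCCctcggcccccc
Itga5: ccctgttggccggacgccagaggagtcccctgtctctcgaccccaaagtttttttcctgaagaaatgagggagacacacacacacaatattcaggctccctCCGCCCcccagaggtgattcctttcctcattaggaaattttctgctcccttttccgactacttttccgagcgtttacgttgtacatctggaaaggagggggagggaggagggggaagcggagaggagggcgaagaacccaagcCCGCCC
Itga4: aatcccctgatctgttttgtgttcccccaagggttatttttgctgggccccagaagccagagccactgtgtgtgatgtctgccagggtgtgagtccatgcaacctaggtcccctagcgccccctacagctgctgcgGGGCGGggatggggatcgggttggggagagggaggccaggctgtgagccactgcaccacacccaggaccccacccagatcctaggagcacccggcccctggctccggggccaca
Such sequence was at hand for 7 members, the others being Itgav, Itgb1, Cd44 and Cass4. Only Icam1 of the 7 held GGANNTTCC, from 153 to 145 bases before the start, a match found in 3.59% of the 32851 promoters searched. The NF-kB consensus (7.25% of promoters), the AP-1 site TGANTCA (6.75%) and the TATA box TATAAA (12.4%) matched none of the 7. All motifs were searched on both strands, and the NF-kB consensus and GGANNTTCC can overlap. GC boxes, found in 32.7% of promoters, were present in Icam1, Itga5 with 2, Itga4 and Itgb1. A match describes letters in this window and is not a measured binding site.

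Ecrg4(71-132) was compared with Fc, the carrier at the same dose, to ask what the fragment adds to the carrier. Of the 10 members 9 were higher in both sets on the signals as read, where 28.5% of all genes were, and Itga4 was lower in both, where 36.4% were. The 9 include Cass4, for which neither array of set 2 was well above background, so its direction there was not measured. Icam1, Vcam1, Itgal, Itga5 and Itgav were over 2-fold higher in set 2, 5 of the 10 members against 4.21% of all genes. None of the 10 was over 2-fold higher in set 1, where 0.78% of genes were. The log2 fold was larger in set 2 than in set 1 for 8 members, all except Itgb2 and Cass4, against 47.8% of genes.

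Over both sets, 0 members and 0% of all genes passed in limma, while 643 genes had an unadjusted p under 0.05. The difference from Fc was 1.26 (SE 0.60) for Icam1, 2.28 (SE 2.61) for Vcam1, 1.14 (SE 0.41) for Itga5, 0.67 (SE 0.58) for Cd44 and 0.67 (SE 0.72) for Itgal. The spread in this fit holds the difference between the sets, so its intervals are wide: the 95% interval was -0.25 to 2.76 for Icam1 and -4.30 to 8.86 for Vcam1. Itga5 had the smallest unadjusted p among the members, 0.0364 in limma (adjusted p = 1), with an interval of 0.10 to 2.17. The remaining members had differences of 0.65 for Itgav, 0.36 for Cass4, 0.21 for Itgb1, 0.14 for Itgb2 and -0.16 for Itga4. With normexp background correction Vcam1 was at 1.32 and Cass4 at 0.18, and with quantile scaling Itgb2 was at 0.063. Each array was also left out in turn. Icam1 then ran from 0.71, without the Fc array of set 2, to 1.81, without that of set 1, and Itga5 from 0.55 to 1.72 without the Ecrg4(71-132) array of set 2 and of set 1. Signs turned for others: Vcam1 then read -0.26 without the Fc array of set 2, Itgal -0.14 without the Ecrg4(71-132) array of set 2, Itgb2 -0.69 without the Fc array of set 1 and -0.68 without the Ecrg4(71-132) array of set 2, and Itga4 0.23 and 0.069 without these same arrays. Such fits weigh the sets unequally.

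With the set as a replicate block, 0 members and 0% of genes passed as well, and 3556 genes had an unadjusted p under 0.05. The block leaves the differences as they are and narrows their errors: Cd44 was 0.67 (SE 0.096, 95% interval 0.42 to 0.92, adjusted p = 0.185 in limma), Itga5 1.14 (interval 0.33 to 1.94, adjusted p = 0.222) and Itgal 0.67 (interval 0.10 to 1.23, adjusted p = 0.239). Icam1 had an interval of -0.15 to 2.66 (adjusted p = 0.293) and Vcam1 of -0.68 to 5.24 (adjusted p = 0.337). The members with near-equal folds in both sets, not those with the largest mean, had the narrowest intervals. Cd44 was 0.79 higher in set 2 and 0.56 higher in set 1, and without the Ecrg4(71-132) array of set 1 it passed in the blocked fit (0.80, limma, adjusted p = 0.0488), as 1 of 481 genes called there. Itgav turned to -0.057 in that fit without the Ecrg4(71-132) array of set 2.

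**Figure D2:**
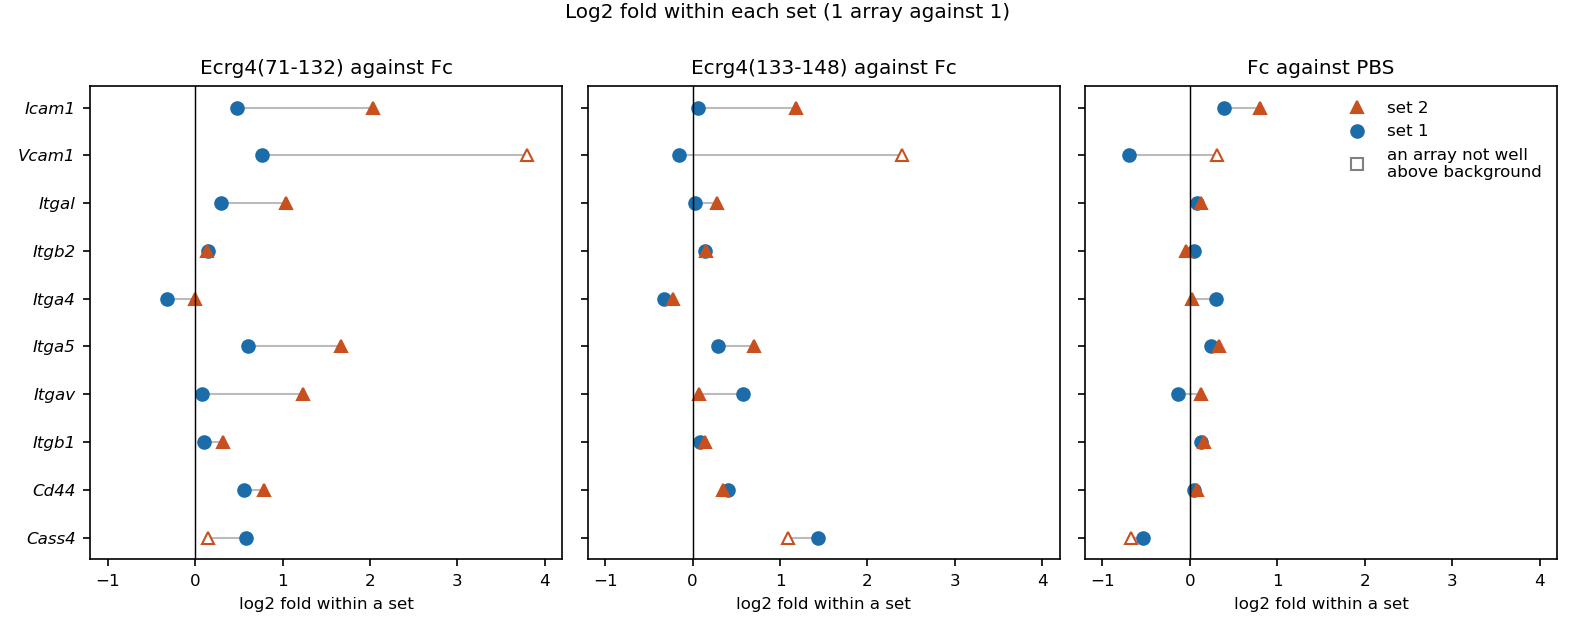
Log2 fold of each of the 10 genes within each set, 1 array against 1, for Ecrg4(71-132) against Fc, Ecrg4(133-148) against Fc and Fc against PBS, with set 2 as triangles and set 1 as circles; open symbols mark folds in which at least 1 array was not well above background. For Ecrg4(71-132) against Fc, the Icam1 folds are 2.04 in set 2 and 0.48 in set 1, and those of Itgb2 are 0.13 and 0.15.

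Between the 2 counter-receptors and the 6 integrins, the mean log2 fold of Ecrg4(71-132) over Fc differed by 2.19 in set 2 and by 0.47 in set 1, an average of 1.33 ± 1.21 (SD, n = 2 sets). The values of 2.19 and 1.33 take the Vcam1 signal of the Fc array of set 2 as read, although it was not well above background. With Vcam1 at its bound, the set 2 difference was at least 1.75. In both sets the counter-receptors had the larger mean. Without the Fc array of set 2 this difference was -0.32, and without the Fc array of set 1 it was 2.97. No p is given for this score, since the 10 genes were chosen with results known.

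Ecrg4(133-148) was compared with the same Fc arrays, which both comparisons share. Here 8 of 10 members were higher in both sets, against 28.5% of all genes, and Itga4 was lower in both, against 30.6%. Vcam1 was at least 2.89-fold higher in set 2 and differed by -0.16 in set 1. Cass4 was the one member over 2-fold higher in both sets on the signals as read, as 0.0523% of all genes were, although its set 2 value is only a bound of at least 1.56-fold. The log2 folds of Icam1 were 1.18 in set 2 and 0.061 in set 1, of Itga5 0.70 and 0.30, and of Cd44 0.34 and 0.40.

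No member passed in this comparison (0% of genes in limma, where 88 had an unadjusted p below 0.05). Cass4 stood at 1.26 (SE 0.23, 95% interval 0.68 to 1.84, unadjusted p = 0.00225, adjusted p = 1 in limma) and at 0.61 with normexp correction. Vcam1 stood at 1.12 (SE 2.61) and at 0.43 with normexp, Icam1 at 0.62 (SE 0.60), Itga5 at 0.50 (SE 0.41) and Cd44 at 0.37 (SE 0.58). Without the Fc array of set 2 Vcam1 read -1.42, and without the Ecrg4(133-148) array of set 1 it read -0.14. Icam1 was at 0.072 without the Fc array of set 2 and at 1.17 without that of set 1, and Itga5 was at 0.24 without the Ecrg4(133-148) array of set 2 and at 0.76 without that of set 1. Cd44 turned to -0.073 without the Fc array of set 1 and to -0.043 without the Ecrg4(133-148) array of set 2. Blocking on the set, which also called 0 genes, gave Cass4 an interval of 0.82 to 1.69 (limma, adjusted p = 0.836).

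The fragments were compared directly at their shared mass concentration. Ecrg4(133-148) was lower than Ecrg4(71-132) in both sets for 7 of 10 members (Icam1, Vcam1, Itgal, Itga4, Itga5, Itgb1 and Cd44), against 23.7% of all genes, and higher in both sets for Cass4, against 33.5%. Icam1 differed by -0.86 in set 2 and -0.42 in set 1, Itga5 by -0.97 and -0.31, and Cd44 by -0.44 and -0.15. Vcam1 differed by -1.40 in set 2 and -0.92 in set 1, where all 4 arrays concerned were well above background. Cass4 was at least 1.92-fold higher with Ecrg4(133-148) in set 2 and 0.85 higher on the log2 scale in set 1.

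None of the 10 passed this test, and neither did any other gene (0% in limma, where 141 had an unadjusted p below 0.05). The mean differences, Ecrg4(133-148) minus Ecrg4(71-132), were -0.64 for Icam1 (95% interval -2.14 to 0.87), -1.16 for Vcam1 (-7.74 to 5.42), -0.64 for Itga5 (-1.67 to 0.39) and -0.30 for Cd44 (-1.76 to 1.16). Cass4 was at 0.90 (0.31 to 1.48, limma, adjusted p = 1) and at 0.44 with normexp. With the set as a block the intervals were -2.04 to 0.77 for Icam1, -0.55 to -0.045 for Cd44 and 0.46 to 1.33 for Cass4 (limma, adjusted p = 0.764, 0.714 and 0.714). Cd44 turned to 0.26 without the Ecrg4(71-132) array of set 2 and to 0.12 without the Ecrg4(133-148) array of set 1, and Vcam1 to 0.10 without the Ecrg4(133-148) array of set 2. Itga5 was at -0.049 without the Ecrg4(71-132) array of set 2 and at -1.23 without that of set 1. With the block, Icam1 turned to 0.028 and Vcam1 to 0.10 without the Ecrg4(71-132) array of set 2.

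The carrier was compared with PBS, which measures what Fc alone adds. Of the 10 members 6 were higher with Fc in both sets, against 39.6% of all genes, and Cass4 was lower in both, against 16.7%. Icam1 was 0.80 higher in set 2 and 0.39 higher in set 1, Itga5 0.33 and 0.25, and Itgb1 0.16 and 0.12. Cd44 differed by 0.086 in set 2 and 0.044 in set 1. Cass4 was lower with Fc by at least 1.17-fold in set 2, and its set 1 difference was -0.54. Vcam1 was not well above background with either in set 2 and differed by -0.70 in set 1. No member passed (0% of genes in limma, where 51 had an unadjusted p below 0.05).

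A stepwise order, lowest with PBS, then Fc, then Ecrg4(133-148) and highest with Ecrg4(71-132), held in both sets for Icam1, Itgal, Itga5, Itgb1 and Cd44, 5 of 10 members where 4.61% of all genes had it. Itgb2 had it in set 1 alone, where 6 members and 12.3% of genes did, and Vcam1 and Itgav in set 2 alone, where 7 members and 15.1% did. For Vcam1 the step between Fc and PBS in set 2 was not measured, since neither signal was well above background. The second Itgb1 probe broke the order in set 1, with 1.33 for Ecrg4(133-148) and 1.35 for Fc. Steps within that order were often small: in set 1 Icam1 with Ecrg4(133-148) lay 0.061 above Fc, and Itgb1 with Ecrg4(133-148) differed from Ecrg4(71-132) by -0.013. Both fragments were also set against both controls, 4 arrays against 4, which gave 1.24 for Icam1 (SE 0.42), 0.96 for Itga5 (SE 0.29), 0.55 for Cd44 (SE 0.41) and 0.23 for Itgb1 (SE 0.091). None of these passed (limma, adjusted p = 0.993 to 1), and 0% of genes did, while 885 had an unadjusted p below 0.05. The spread in this fit holds the difference between the sets. With the set as a replicate block the SE was 0.38 for Icam1, 0.22 for Itga5, 0.068 for Cd44 and 0.060 for Itgb1. Again no member passed (limma, adjusted p = 0.167, 0.134, 0.105 and 0.146 for these genes), and 0% of genes did. In the blocked fit 7 of 10 members and 23.3% of all genes had an unadjusted p below 0.05.

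The sets were then compared with the treatment as a block. Itgb2, nearly level across treatments, differed most among the members that were higher in set 2. Itgb2 was 6.44 ± 0.072 in set 2 and 4.77 ± 0.098 in set 1 (SD, n = 4 each), a log2 difference of 1.68 (SE 0.044, limma, adjusted p = 9e-05). Itgal was 1.12 higher in set 2 (SE 0.15, adjusted p = 0.00366) and Cd44 0.93 higher (SE 0.068, adjusted p = 0.00065). Every treatment showed these 3 differences, from 1.64 to 1.74 for Itgb2, 0.83 to 1.62 for Itgal and 0.83 to 1.13 for Cd44. Both subunits of LFA-1 were thus higher in set 2 on all 4 pairs of arrays. These 3 were called higher out of 10, where 36.4% of all genes were.

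Vcam1 and Itga4 were called lower in set 2, 2 of 10 members where 22.8% of all genes were. Vcam1 was -3.12 ± 1.97 in set 2 and 0.81 ± 0.47 in set 1 (SD, n = 4 each), a difference of -3.93 (SE 0.79, limma, adjusted p = 0.0125) that includes 2 set 2 arrays not well above background. As bounds, its signal in set 2 was at least 18.5-fold lower with Fc and at least 39.9-fold lower with PBS. Where both arrays were measured, set 2 minus set 1 was -2.04 with Ecrg4(71-132) and -2.52 with Ecrg4(133-148). Itga4, the alpha subunit of the VCAM-1 receptor, was lower by a much smaller amount, -0.60 (SE 0.072, adjusted p = 0.0025), and lay lower in set 2 with every treatment. Icam1 (-0.53, SE 0.38), Itga5 (0.46, SE 0.22), Itgav (-0.49, SE 0.30), Itgb1 (-0.032, SE 0.060) and Cass4 (-0.23, SE 0.12) did not pass (limma, adjusted p = 0.128 to 0.668). Itgav was at -0.85 once either Ecrg4(71-132) array was left out. Both omissions are the same fit, since the array left over adds nothing to a set difference with the treatment as a block.

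**Figure D3:**
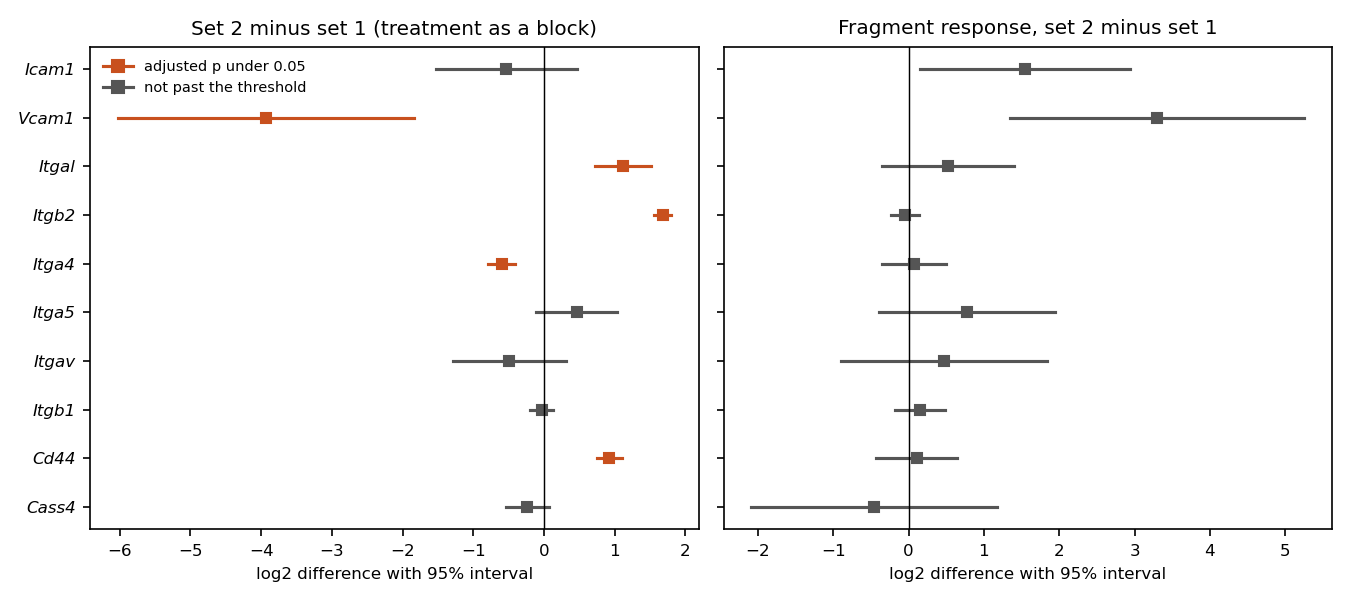
Left, log2 difference of set 2 minus set 1 with the treatment as a block; right, the difference between sets in the response to the fragments (mean of both fragments minus mean of Fc and PBS, set 2 minus set 1). Squares are estimates and bars 95% intervals from limma, orange where the adjusted p is under 0.05: Itgb2, Itgal and Cd44 lie above 0 on the left and Vcam1 and Itga4 below it, and no gene is orange on the right.

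Markers of other cells were read beside these differences. All 6 fibroblast and mural cell markers were measured, 1 to 4 of them well above background per array in set 2 and 5 or 6 in set 1. Their summed signal was 1.01 with Ecrg4(71-132), 0.583 with Ecrg4(133-148), 0.407 with Fc and 0.457 with PBS in set 2, against 31.1, 22.2, 29.4 and 47.8 in the same order in set 1. Within set 2 both controls had lower sums and lower Vcam1 than both fragment arrays, and the sum and Vcam1 were highest with Ecrg4(71-132). Within set 1 the sum was highest with PBS, where Vcam1 was level with Ecrg4(71-132), and lowest with Ecrg4(133-148), where Vcam1 was lowest. The set 1 sums with Ecrg4(71-132) and Fc lay close together, at 31.1 and 29.4, while Vcam1 was 1.25 and 0.49. The part of these cells in the Vcam1 values was not tested. The astrocyte markers summed to 12.4 to 14.4 in set 2 and 9.37 to 17.9 in set 1, sums led by Aldh1l1, while Gfap averaged -5.45 in set 2 and 1.57 in set 1 and 4 of the 5 tested were lower. Their median level also varied with treatment: it was -3.74 with Ecrg4(71-132), -4.34 with Ecrg4(133-148), -5.74 with Fc and -5.25 with PBS in set 2, where 1 to 4 of the 6 were well above background per array, and 0.45, -0.092, -0.14 and 1.004 in the same order in set 1. For Ecrg4(71-132) against Fc, on the signals as read, the median log2 fold of the 5 tested astrocyte markers was 1.71 in set 2 and 0.59 in set 1. On the Fc array of set 2 only 1 of the 6 was well above background, so the set 2 median rests on dim signals. Of the 5, 3 were higher in both sets as read, where 28.5% of all genes were. In the median level of these markers, as for Vcam1, the fragment arrays were above both controls in set 2, and PBS was high in set 1. The part of astrocytes in the Vcam1 and Icam1 differences was not tested. The endothelial markers summed to 12.4 to 13.5 in set 2 and 7.43 to 8.06 in set 1, with Tek and Emcn not well above background on any array. The neutrophil markers summed to 23.5 to 29.3 in set 2 and 19.1 to 22.2 in set 1, with Mpo not well above background on any array. The neuron markers summed to 4.12 to 7.97 in set 2 and 3.88 to 5.04 in set 1, with Syt1 not well above background on any array. Whether these cells contribute to the differences in Itgal, Itgb2 and Cd44 was not tested.

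**Figure D4:**
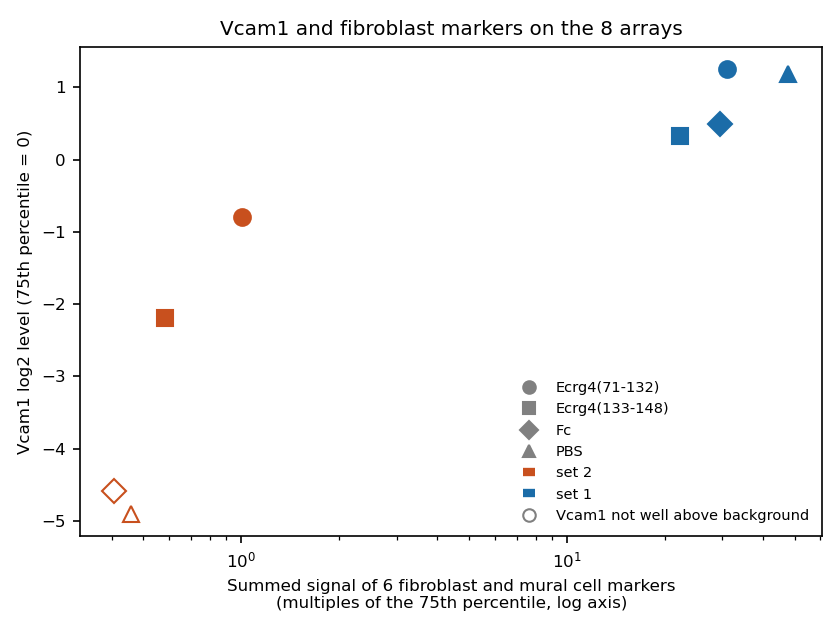
Vcam1 log2 level against the summed signal of 6 fibroblast and mural cell markers (multiples of the 75th percentile, log axis) on the 8 arrays, orange for set 2 and blue for set 1, with a symbol per treatment; open symbols mark arrays on which Vcam1 was not well above background. The 4 set 1 arrays lie at 22.2 to 47.8 with Vcam1 from 0.33 to 1.25, and the 4 set 2 arrays at 0.407 to 1.01 with Vcam1 from -4.90 to -0.79.

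Microglial genes themselves also differed between the sets. Csf1r, the receptor that microglia need to survive, averaged 8.07 in set 2 and 8.08 in set 1, and Trem2 7.46 and 7.10. Cx3cr1, the fractalkine receptor, averaged -1.95 in set 2 and 4.68 in set 1, and Tmem119, a marker of homeostatic microglia, -4.33 and -2.05, with 5 of 8 arrays well above background.

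Whether the response to the fragments differed between the sets was tested as an interaction, the mean of both fragments minus the mean of Fc and PBS, set 2 minus set 1. It was 3.30 for Vcam1 (SE 0.78, unadjusted p = 0.00661) and 1.55 for Icam1 (SE 0.56, unadjusted p = 0.0348), and neither passed (limma, adjusted p = 0.589 for both). Of all genes 0% passed, while 1477 had an unadjusted p below 0.05. The residual spread of this fit holds the differences between the fragments and between Fc and PBS, with 1 array per treatment in each set. Its SE and p thus do not measure the spread between duplicates of a treatment. The Vcam1 value takes as read the set 2 Fc and PBS signals, neither of which was well above background. With these at their bounds it was at least 2.48, and with normexp correction it was 1.71. Among the integrins it ran from -0.046 for Itgb2 to 0.78 for Itga5, and it was 0.11 for Cd44 and -0.45 for Cass4, which also rests on dim arrays in set 2 (limma, adjusted p = 0.595 to 0.874 over these members). The Icam1 value lay above those of the 6 integrins, but the difference between the classes was not tested. Without the Ecrg4(71-132) array of set 2 the sign turned for Itgav (-0.11), Cd44 (-0.11), Itga4 (-0.035) and Cass4 (0.015), and without the Fc array of set 1 for Itga4 (-0.081).

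Patterns like those of single members were sought among the named genes well above background on all 8 arrays, after the mean of each set was taken away, with Pearson's r as a description over 8 arrays that share 1 slide. Closest to Icam1, among 11560 genes, were Clec4e, Gpr84, Ptafr, Malt1 and Fas, with r of 0.997 to 0.999. Closest to Vcam1 were Rhbdf1, Atn1, Efnb2, Gpr155 and Nsmf (0.985 to 0.991), and closest to Cd44 were Ubtf, Vax2, Skint7, Spag7 and Arl1 (0.996 to 0.998). Cass4 was followed less closely, by Cul4a, Nes, Prl3b1, Mycbp and Hras (0.927 to 0.947). Among the members themselves, Icam1 and Itga5 had an r of 0.97 on this scale, Icam1 and Cd44 0.89, and Icam1 and Vcam1 0.92, while Itga4 and Cass4 had -0.79. Every r of Vcam1 takes as read its set 2 Fc and PBS signals, which were not well above background. Likewise every r of Cass4 takes as read its dim set 2 signals with Fc and Ecrg4(71-132).

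Other adhesion genes were listed by family. Of 22 other cell adhesion molecules 17 were tested, and with Ecrg4(71-132) against Fc their median log2 fold was 0.00, beside -0.02 for all genes, with 5 higher and 6 lower in both sets, where 28.5% of all genes were higher and 36.4% lower. Of 20 other integrin subunits 9 were tested, with a median of -0.17, 4 higher and 5 lower in both sets. The 34 tested genes of integrin activation and adhesion signalling had a median of 0.10, 18 higher and 6 lower in both sets, and the 19 tested matrix and hyaluronan genes a median of 0.10, 9 higher and 5 lower. The brightest gene of each list did not pass: Cd164, a sialomucin, was at -0.068, Itga6, the laminin receptor subunit, at -0.34, Tln1, the integrin activator talin, at -0.043 and Lgals3, galectin-3, at -0.020. None of these lists had a gene that passed in any of the treatment comparisons (limma).

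Has1, which encodes a synthase of hyaluronan, the ligand of CD44, was the one gene of these lists over 2-fold higher in both sets with Ecrg4(71-132) against Fc on the signals as read. In set 2 it was -2.93 with Ecrg4(71-132), and -4.30 with Ecrg4(133-148), -6.03 with Fc and -4.86 with PBS, the last 3 not well above background. In set 1 it was -0.74 with Ecrg4(71-132), -2.52 with Ecrg4(133-148), -2.36 with Fc and -2.60 with PBS. Ecrg4(71-132) was the highest array in both sets. The set 2 signal with Ecrg4(71-132) was at least 1.72-fold that with Fc, at least 2.30-fold that with PBS and at least 1.97-fold that with Ecrg4(133-148). The mean difference from Fc was 2.36 (SE 1.58, limma, adjusted p = 1).

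Between the sets, 15 of the 17 other adhesion molecules passed, 10 higher and 5 lower in set 2, where 36.4% of all genes were higher and 22.8% lower. Jam2, a junctional molecule, was at -5.46 with 1 of 4 set 2 arrays well above background, and Cd34, a sialomucin of progenitors and vessels, at -4.57, while Icam5 (1.85) and F11r (1.44), the gene of JAM-A, were higher (limma, adjusted p = 0.000257 to 0.00182 for these 4). Of the 9 other integrin subunits 3 were higher and 4 lower. Itgax, the alpha subunit CD11c that pairs with Itgb2, was at 5.32 to 5.48 in set 2 and 0.85 to 1.06 in set 1, a difference of 4.41 (SE 0.050, limma, adjusted p = 4.25e-05). Itgb7, the other beta partner of Itga4, was at -3.67 to -3.16 in set 2 and 1.07 to 1.14 in set 1, a difference of -4.53 (SE 0.085, limma, adjusted p = 6.94e-05). Neither gene overlapped between the sets, in a comparison that 59.3% of all genes passed. The share of all genes without overlap was not counted. Itga7 (-3.43) and Itga6 (-1.38) were lower and Itga1 (1.63) was higher (limma, adjusted p = 0.000151 to 0.00184).

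Of the 34 signalling genes, 18 were higher and 3 lower in set 2, beside the same 36.4% and 22.8% of all genes. Within the Cas family of Cass4, Bcar1, which encodes p130Cas, was at -3.43 with 2 of 4 set 2 arrays well above background, and Nedd9 at 1.53, while Cass4 itself did not pass. Fyb, an adaptor that couples T-cell receptor signals to integrins, was at -2.31, and Tln2 (2.13) and Actn1 (1.62), which link integrins to actin, were higher (limma, adjusted p = 0.000172 to 0.000839 for these 5). Of the 19 matrix and hyaluronan genes, 8 were higher and 7 lower. Stab1, a scavenger receptor, was at -2.84, Has1 at -2.48, Thbs1, thrombospondin-1, at -1.85 and Hmmr, another hyaluronan-binding protein, at -1.45, whereas Mfge8, a bridge between dying cells and the vitronectin receptors, was at 1.20 (limma, adjusted p = 6.94e-05 to 0.00363).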

How the data were processed

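The deposited scanner files hold 1-colour spot intensities, background-subtracted and detrended by Agilent Feature Extraction 11.0.1.1 per the file headers and the submitters' processing notes, with flags for saturated, outlying and well-above-background spots. No spot was saturated. The deposited table holds the authors' log2 values, which match the scanner signal on the log2 scale less a constant that differs by array (r = 1 in each column, column medians -4.47 to -4.20); the sources used here do not give the rule behind it. It is not centred by gene, and its direction is that of the signal.

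Each array was scaled by subtracting, on the log2 scale, the 75th percentile of its spots other than controls. Outlying spots were dropped (104 probes lost all of theirs on some array) and spots of 1 probe averaged. RefSeq accessions, without versions, named 28026 of 55681 probes through a GRCm38.p6 gene table, and 27655 kept the files' name. Probe coordinates are not used here, since the array design rests on a different build. The filter asked that a probe be well above background on both duplicates of some treatment (25243 probes passed), and a gene was read from its brightest probe; 7 members had over 1 probe. Promoters of 7 members were matched by symbol in a RefSeq table.

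Models were fitted with limma 3.58.1 (R 4.3.3) over all 8 arrays: a mean for each group (4 residual degrees of freedom), the set contrast with the treatment as a block (3) and the interaction of set and fragment (4), with Benjamini-Hochberg adjustment over 19113 genes and a threshold of 0.05. The fit was tested on simulated data. A fold against an array not well above background is a bound, "at least": the measured level against the dim signal or, where higher, the dimmest well-above-background probe of that array. The numbers were taken as pairs, since the labels call them sets and the set differences of any 2 treatments correlated at 0.78 to 0.86 (6 correlations, over genes). All arrays were on 1 slide, each set in a column and each treatment in a row of its own, so row and treatment cannot be told apart, nor can column and set.

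The 10 genes and all lists were chosen with earlier results of these data known. All 10 members are named. Of the 4 other lists, those passing the test are named, at most 5 by size, or else those over 2-fold in both sets, and the brightest of each; 1 gene that this rule names and 1 marker list are not reported here. Alternatives were normexp background correction (offset 50, from median spot signals, no mean signal being in these files), scaling by quantiles or by the median, no filter or a filter on all 8 arrays, the mean of a gene's probes, a trend in eBayes, the deposited log2 table, the set as a block, and each array left out with and without that block. Precision is limited by the number of arrays.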

Additional observations from a re-analysis of the deposited data

Results flagged for a closer look

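For 10 pairs of member and comparison the sets moved in opposite directions, 1 array against 1 in each set; none of these differences between sets was tested for the comparison concerned. The largest were those of Vcam1. Its log2 difference of Ecrg4(133-148) from Fc was 2.40 in set 2 and -0.16 in set 1, and from PBS 2.71 in set 2 and -0.85 in set 1, with the control arrays of set 2 not well above background. Between Fc and PBS, Vcam1 differed by 0.31 in set 2, on signals not well above background, and by -0.70 in set 1.

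Itgav differed between Ecrg4(133-148) and Ecrg4(71-132) by -1.16 in set 2 and 0.50 in set 1, and between Ecrg4(71-132) and PBS by 1.37 in set 2 and -0.069 in set 1. Between Fc and PBS it differed by 0.13 in set 2 and -0.14 in set 1. Cass4 differed between Ecrg4(71-132) and PBS by -0.53 in set 2, where the fragment array was not well above background, and by 0.038 in set 1.

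The remaining opposite pairs were small. Itgb2 differed by 0.022 in set 2 and -0.013 in set 1 between Ecrg4(133-148) and Ecrg4(71-132), and by -0.041 in set 2 and 0.046 in set 1 between Fc and PBS. Itga4 differed by 0.017 in set 2 and -0.014 in set 1 between Ecrg4(71-132) and PBS.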

How the results depend on the processing

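Of 40 member results recomputed under up to 26 alternatives, 793 values kept their direction and side of the threshold, 24 turned sign, 3 newly passed and 0 ceased to pass. In set 2 against set 1, leaving out either array of a treatment is the same fit, and its value is counted under each omission. Normexp background correction turned Cass4 in set 2 against set 1 to 0.066 and the Itgb2 interaction to 0.0077, and the mean of the probes turned Itgb1 in set 2 against set 1 to 0.0022. The interaction called 0 genes as reported, 1 with quantile scaling, 23 with no filter and 1 with probes well above background on all 8 arrays. Set 2 against set 1 called 18666 genes with no filter. It called 5421 higher and 4733 lower with median scaling, and 6170 higher and 5248 lower with quantile scaling. The median of all genes in that comparison was 0.11 as reported, 0.04 under both scalings and 0.36 with no filter. Median scaling also put the median of all genes at 0.16 for Ecrg4(71-132) and 0.15 for Ecrg4(133-148) against PBS, beside 0.01 and 0.03.

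With each array left out in turn, with or without the set as a block, Ecrg4(71-132) against Fc ran from -0.69 to 0.97 for Itgb2, -0.55 to 0.23 for Itga4, -0.14 to 1.48 for Itgal, -0.26 to 4.82 for Vcam1, -0.057 to 1.37 for Itgav, 0.11 to 1.23 for Cd44, 0.59 to 1.92 for Icam1 and 0.55 to 1.72 for Itga5. Ecrg4(133-148) against Fc ran from -0.073 to 0.82 for Cd44, -1.42 to 3.66 for Vcam1, 0.072 to 1.17 for Icam1 and 0.24 to 0.76 for Itga5, and Ecrg4(133-148) against Ecrg4(71-132) from -0.86 to 0.26 for Cd44, -2.42 to 0.10 for Vcam1, -1.30 to 0.028 for Icam1 and -1.23 to -0.049 for Itga5. The interaction ran from -0.081 to 0.22 for Itga4, -0.11 to 1.05 for Itgav, -0.11 to 0.33 for Cd44 and -0.92 to 0.015 for Cass4. The counter-receptor minus integrin difference ran from -0.32 to 2.97. Calls ran from 0 to 481 for Ecrg4(71-132) against Fc, 0 to 1077 for Ecrg4(71-132) against PBS, 0 to 1019 for both fragments against the controls, 0 to 192 for the interaction and 8909 to 11042 for set 2 against set 1. The highest counts of the first 3 came without the Ecrg4(71-132) array of set 1, with the block, and the interaction's without the Ecrg4(133-148) array of set 2.

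The set as a replicate block changed no member's call, and 0 genes passed in any treatment comparison with it. The cause of these changes was not tested. Vcam1 and Cass4 are limited by signal over background, and every value by 2 arrays a group.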
